A study of Rattus norvegicus with 18 samples.

Results

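Nr1d1 and Thra are neighbouring rat genes that lie on opposite strands of 1 chromosome and overlap each other. They were chosen by measured values, their low smoke-over-air ratios in these lungs and the correlation of those ratios, so their levels against air, their dose difference, their correlation and the contrast of Nr1d1 with its paralogue Nr1d2 are given as a description, with no test. Both are measured in all 18 samples, and they are 2 of the 4616 genes with a value in the table. Nr1d1 has 2 probes, called A and B here, Thra has 1 probe and Nr1d2 has 1 probe.

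The study followed the rat lung transcriptome through repeated cigarette smoke inhalation. Rats breathed diluted smoke at 600 µg TPM/l (high dose; TPM is total particulate matter) or 300 µg TPM/l (low dose), or conditioned fresh air, by nose only, for 2, 7 or 13 weeks, and lungs were taken when 2, 6 or 20 hours had passed since the final exposure. Each of the 18 samples is 1 log2 ratio profile of a pool of whole lungs from 4 smoke-exposed rats over a pool from 4 air-exposed rats, measured on 2-colour PIQOR arrays. Every combination of dose, weeks and hours has 1 sample, and the high-dose and low-dose samples of a combination share their air pool, which makes 9 air pools. The sources used here name no strain, sex or age of the animals. Smoke RNA always carried Cy5 and air RNA Cy3, with no dye swap named, so a constant dye effect on a probe cannot be told apart from a smoke effect in any level against air. Such an effect cancels in differences between doses, hours or weeks. Time of day was not used here, so it cannot be told apart from the hours after exposure. A value was present for 3919 to 4583 genes per sample. Of the lung markers, Sftpa1, Sftpd, Ager and Aqp5 of alveolar epithelium and Foxj1 of ciliated airway cells were measured, but a ratio says nothing of their level.

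Nr1d1 encodes REV-ERBα, a heme-binding nuclear receptor that represses transcription through the NCoR corepressor and the histone deacetylase HDAC3. It is an output of the circadian clock and feeds back on it by repressing Bmal1, and its paralogue Nr1d2, REV-ERBβ, shares these targets. In lung, REV-ERBα is known as a brake on inflammatory genes. Thra encodes thyroid hormone receptor α, a ligand-dependent nuclear receptor that binds DNA with RXR partners. Its alternative transcript for the TRα2 isoform ends in an exon that runs antisense to the 3′ end of Nr1d1, an arrangement known across mammals.

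Nr1d1, as the mean of its probes, was below air in all 9 high-dose samples and in 8 of 9 low-dose samples. At the high dose its log2 ratio after 2 weeks was -0.65 at 2 hours, -0.255 at 6 hours and -0.26 at 20 hours. After 7 weeks it was -0.79, -0.885 and -0.655 at the same hours, and after 13 weeks -0.88, -0.525 and -0.225. The lowest high-dose values thus stood at 7 weeks 6 hours and 13 weeks 2 hours. At the low dose the values at 2, 6 and 20 hours were -0.58, -0.22 and -0.175 after 2 weeks. They were -0.43, -0.355 and 0.035 after 7 weeks and -0.705, -0.395 and -0.105 after 13 weeks. The low-dose 7-week 20-hour sample was the one Nr1d1 value above air, and the doses overlapped. The mean was -0.57 ± 0.08 at the high dose and -0.33 ± 0.07 at the low dose (SE, n = 9 each), which is 67.4% and 79.8% of the air level as geometric means. Without the 2-hour samples the low-dose mean was -0.20.

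Thra was below air in all 18 samples. Its high-dose log2 ratio at 2, 6 and 20 hours was -0.51, -0.12 and -0.32 after 2 weeks, -0.71, -0.97 and -0.49 after 7 weeks, and -0.97, -0.62 and -0.40 after 13 weeks. The lowest values of Thra fell in the same samples as those of Nr1d1, high dose at 7 weeks 6 hours and at 13 weeks 2 hours. At the low dose Thra was at -0.38, -0.17 and -0.43 after 2 weeks, -0.06, -0.49 and -0.38 after 7 weeks, and -0.69, -0.56 and -0.27 after 13 weeks. Here too the doses overlapped. The mean was -0.57 ± 0.08 at the high dose and -0.38 ± 0.06 at the low dose (SE, n = 9 each), or 67.5% and 76.8% of the air level. Over all genes tested the median was 0.003 at the high dose and -0.002 at the low dose. Of 4016 genes tested with limma, 7.64% were called lower and 9.56% higher at the high dose (Benjamini-Hochberg adjusted p under 0.05), and 1.44% lower and 3.51% higher at the low dose. These shares are printed as background alone, since this contrast chose the pair.

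**Figure D1:**
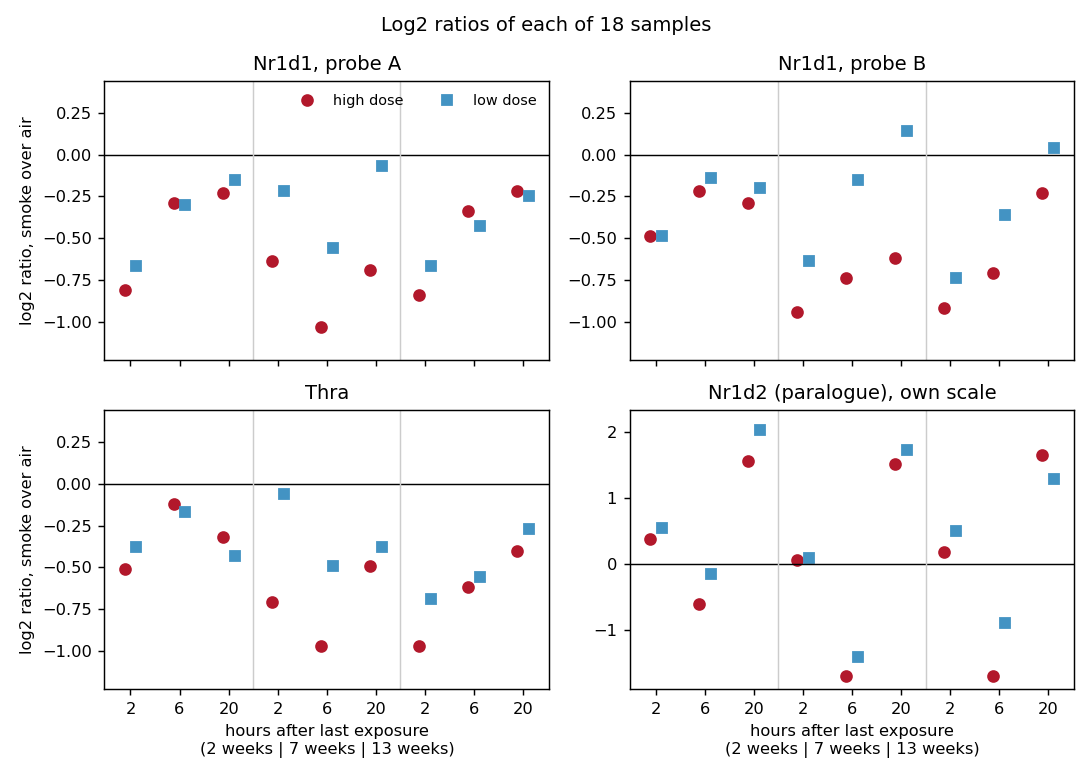
Log2 ratio of smoke over air (vertical axes; 0 is the air level) in each of the 18 samples, by weeks of exposure and hours after the last exposure, for the 2 Nr1d1 probes, Thra and Nr1d2; red circles are high-dose and blue squares low-dose samples, 1 sample per point. All 18 Thra points and all 18 points of Nr1d1 probe A lie below 0, whereas Nr1d2, on a wider scale, runs between -1.69 and 2.03 and changes sign with the hours.

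The 2 probes of Nr1d1 gave close means but differed by up to 0.42 in single samples. Probe A ranged between -1.03 and -0.22 at the high dose (median -0.64) and between -0.67 and -0.07 at the low dose (median -0.30), and was below air in 18 of 18 samples. Probe B ranged between -0.94 and -0.22 at the high dose (median -0.62) and between -0.74 and 0.14 at the low dose (median -0.20), and was below air in 16 of 18 samples. Both probes averaged -0.57 at the high dose, while at the low dose probe A averaged -0.37 ± 0.07 and probe B -0.28 ± 0.09 (SE, n = 9). The difference A minus B averaged -0.04 (SD 0.24, n = 18), and the probes correlated across samples at r = 0.69. In the table, probe A is listed beside the Nr1d2 probe, while probe B is listed between the Thra probe and those of Thrb. The probe that is listed away from Thra correlated with it at r = 0.74 and the one listed next to it at r = 0.64. Probe sequences were not used here, so whether a probe lies where the transcripts overlap was not tested. The platform annotation assigns both probes to Nr1d1, but whether either reads Nr1d1 or the overlapping Thra transcript was not tested. The values of probe A alone do not depend on what probe B reads.

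The high-dose value of Nr1d1 was below the low-dose value of the same combination in 9 of 9 pairs as the mean of its probes, and that of Thra in 7 of 9. Taken alone, probe A was lower at the high dose in 6 of 9 pairs (differences between -0.62 and 0.09), and probe B in 8 of 9, with 1 pair equal. The mean difference, high minus low, was -0.24 ± 0.08 for Nr1d1 and -0.19 ± 0.08 for Thra (SE, n = 9). Without the 7-week samples it was -0.10 for Nr1d1 and -0.07 for Thra, and without the 2-hour samples that of Thra was -0.10. The wide gaps stood at 7 weeks. There the Nr1d1 difference was -0.36, -0.53 and -0.69 at 2, 6 and 20 hours, while in the other 6 combinations it lay between -0.175 and -0.035. The Thra difference at 7 weeks was -0.65, -0.48 and -0.11, and elsewhere it lay between -0.28 and 0.11. By weeks, the mean difference of Nr1d1 was -0.06, -0.53 and -0.14 at 2, 7 and 13 weeks, and that of Thra 0.01, -0.41 and -0.16. These means are a description with no test, since the values behind them chose the pair. As background, limma's F test of the dose difference over weeks called 0% of 3994 genes (187 at an unadjusted p under 0.05), and that over hours called 0% (143 at an unadjusted p under 0.05). In the mean dose difference itself 0.174% of 4016 genes were called.

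Neither gene passed limma's test for a dependence on the hours after exposure. That test uses the same ratios that chose the pair, so its p-values are no independent support. Nr1d1 averaged -0.67, -0.44 and -0.23 at 2, 6 and 20 hours over both doses and all weeks (F test, adjusted p = 0.132, unadjusted p = 0.0058). Its difference between 20 and 2 hours was 0.44 ± 0.11 (SE, adjusted p = 0.125). Within each hour, the Nr1d1 values ran between -0.88 and -0.43 at 2 hours, between -0.885 and -0.22 at 6 hours and between -0.655 and 0.035 at 20 hours, so the hours overlapped. Probe A differed by 0.37 ± 0.14 (adjusted p = 0.283) and probe B by 0.51 ± 0.11 (adjusted p = 0.0661) between 20 and 2 hours, in the fit of every probe on its own. Thra averaged -0.55, -0.49 and -0.38 at 2, 6 and 20 hours (F test, adjusted p = 0.742), with a difference of 0.17 ± 0.14 between 20 and 2 hours. The 6 Thra values at 20 hours were close together, between -0.49 and -0.27, while those at 2 hours spread between -0.97 and -0.06. The count of 0 of 2 members stood against 1.6% of 3994 genes called over hours.

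Over weeks of exposure neither gene passed the test either, and these p-values too come from the ratios that chose the pair. Nr1d1 averaged -0.36, -0.51 and -0.47 at 2, 7 and 13 weeks, and Thra -0.32, -0.52 and -0.585 (limma F test, adjusted p = 0.909 for each). The difference between 13 and 2 weeks was -0.12 ± 0.11 for Nr1d1 and -0.26 ± 0.14 for Thra (SE). Of the 3994 genes tested over weeks, 0.125% were called.

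Nr1d2 moved strongly with the hours, a pattern that was known when it was set beside Nr1d1. It was above air in all 6 samples at 2 hours, between 0.06 and 0.55, below air in all 6 at 6 hours, between -1.69 and -0.15, and above air in all 6 at 20 hours, between 1.29 and 2.03. The 3 sets of values did not overlap. The means were 0.30, -1.07 and 1.63, and 20 hours exceeded 6 hours by 2.70 ± 0.17 on the log2 scale (SE), given here as a description with no test. Because the hours differ in sign, the means against air, 0.15 ± 0.33 at the high dose and 0.42 ± 0.28 at the low dose (SE, n = 9), lie far from the values at 6 and at 20 hours. Nr1d2 also had its high-dose value below the low-dose value in 8 of 9 pairs, by -0.27 ± 0.09 on average.

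Set against each other sample by sample, Nr1d1 minus Nr1d2 was below 0 in 6 of 6 samples at 2 hours (mean -0.97, SD 0.25), above 0 in 5 of 6 at 6 hours (mean 0.63, SD 0.46) and below 0 in 6 of 6 at 20 hours (mean -1.86, SD 0.30). Over all 18 samples the difference averaged -0.73 (SD 1.11), with -1.415 when the 6-hour samples were left out and -0.17 when the 20-hour samples were. The paralogues correlated at r = 0.42 over the 18 samples, at r = 0.77 without the 6-hour samples and at r = -0.16 without the 20-hour samples. The samples of a combination share an air pool, which is part of each such correlation. The corresponding contrast of Thra with its paralogue Thrb, thyroid hormone receptor β, was not summarised, since 1 of the Thrb probes had 0 values and the other had 3. The Thrb values were 0.43 at high dose, 2 weeks and 6 hours, 0.39 at high dose, 13 weeks and 20 hours, and 0.26 at low dose, 13 weeks and 20 hours.

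Among the clock genes, 10 of 23 on the list were tested and 5 were called over hours, none of them Nr1d1, against 1.6% of all genes. The list was chosen with results of these data known. Bmal1 (the clock activator that REV-ERB proteins repress) averaged -1.20, 1.18 and -1.998 at 2, 6 and 20 hours (limma, adjusted p = 1.02e-05). Dbp, a PAR-domain clock output activator, averaged 0.95, -1.70 and 2.22 (adjusted p = 1.05e-05), and its relative Tef averaged 0.45, -0.32 and 0.85 (adjusted p = 0.00186). Bhlhe40, the repressor DEC1, averaged 0.27, -0.26 and 0.68 (adjusted p = 0.00917). Thus Dbp, Tef, Bhlhe40 and Nr1d2 were all lowest at 6 hours, where Bmal1 was highest. For these clock genes, hours after exposure and time of day cannot be told apart. As a description over the 18 samples, Nr1d2 correlated at r = 0.96 with Dbp and -0.93 with Bmal1, whereas Nr1d1 did so at 0.22 and -0.15. The receptor gene Rorb (0.20, 0.05 and -0.01), the kinase genes Csnk1d (0.03, -0.10 and -0.22) and Csnk1e (-0.03, -0.045 and -0.16), and Timeless (0.155, 0.20 and 0.19) were not called over hours.

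**Figure D2:**
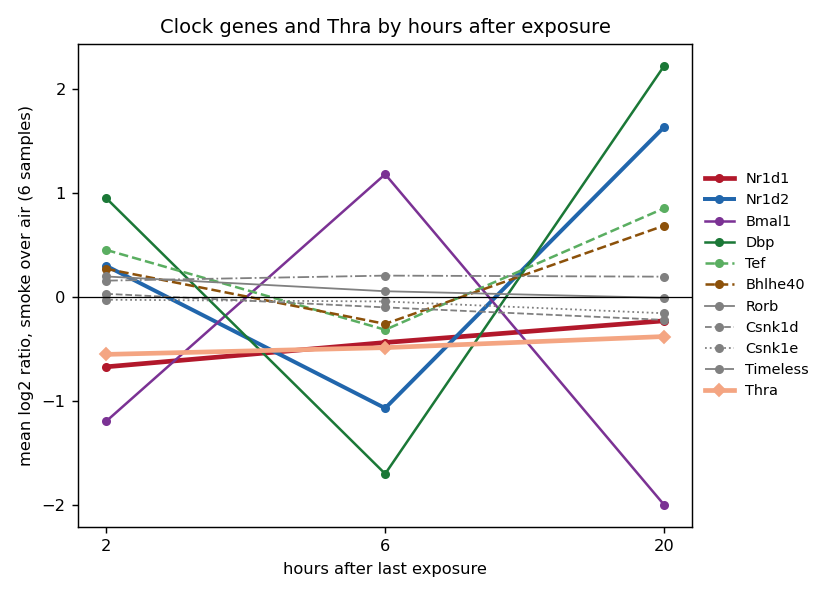
Mean log2 ratio of smoke over air (vertical axis) of the 10 tested clock genes and Thra at 2, 6 and 20 hours after the last exposure (horizontal axis, evenly spaced), each point the mean of 6 samples. Nr1d1 runs -0.67, -0.44 and -0.23 and Thra -0.55, -0.49 and -0.38, while Nr1d2 runs 0.30, -1.07 and 1.63 and Bmal1 -1.20, 1.18 and -1.998.

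At the level of means against air, 1 of the other 9 tested clock genes was called, Timeless, which was higher at the high dose (0.25 ± 0.06, SE, n = 9, limma adjusted p = 0.00909). Over all genes, 9.56% were called higher and 7.64% lower at that dose. The median of the list, with Nr1d1 in it, was 0.125 at the high dose and 0.09 at the low dose, against 0.003 and -0.002 over all genes. Of the genes known to respond to REV-ERB or ROR proteins, or to form their corepressor complex, 7 of 20 were tested and their median was 0.15 at the high dose. Lpl, lipoprotein lipase, rose at both doses, by 0.65 ± 0.08 at the high dose (adjusted p = 0.000163) and 0.40 ± 0.06 at the low dose (adjusted p = 0.00122). Ccl2, a monocyte chemokine, rose at the high dose by 0.28 ± 0.08 (adjusted p = 0.0357). None of the 7 was called lower, and 7 genes are too few to set that apart from the share over all genes. Bmal1 itself did not pass against air, at -0.67 ± 0.39 at the high dose (adjusted p = 0.261), and Hdac3 was at 0.15 ± 0.07 (adjusted p = 0.173).

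On the thyroid hormone side, 3 genes besides Thra were tested of the 19 listed receptors, partners, deiodinases and transporters. None of them was called against air, where 7.64% of all genes were called lower and 9.56% higher at the high dose. The partner receptor gene Rxra was at 0.07 ± 0.06, the coactivator gene Ncoa1 at -0.10 ± 0.05 and Med1 of the Mediator complex at -0.00 ± 0.08 at the high dose. Of 23 thyroid hormone responsive genes 11 were tested, with a median of 0.002 at the high dose. Me1, malic enzyme, rose at the high dose by 0.29 ± 0.06 (limma, adjusted p = 0.00274), and none was called lower. Klf9, a thyroid- and glucocorticoid-responsive transcription factor gene, was called over hours, with means of 0.035, -0.375 and 0.335 at 2, 6 and 20 hours (adjusted p = 0.0353). Thrsp, the hepatic thyroid hormone responsive protein gene, was at -0.07 ± 0.17 at the high dose.

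Beyond the pair, the nuclear receptor family held 15 other tested genes of 48 listed. Over all genes, 7.64% were called lower and 9.56% higher at the high dose, and 1.44% and 3.51% at the low dose. At the high dose Pparg, a lipid-sensing receptor of alveolar macrophages, was higher (0.34 ± 0.07, limma, adjusted p = 0.00506). Its value is a mean over probes that correlated at r = 0.10 and differed by 0.46 on average. The glucocorticoid receptor gene Nr3c1 was lower (-0.31 ± 0.07, adjusted p = 0.00663), as was the orphan receptor gene Nr2f1 (-0.26 ± 0.06, adjusted p = 0.0102). At the low dose Pparg was higher (0.30 ± 0.08, adjusted p = 0.0391), as was the oxysterol receptor gene Nr1h3 (0.17 ± 0.05, adjusted p = 0.0484), while Nr3c1 was lower (-0.29 ± 0.07, adjusted p = 0.0384). The family median, the pair included, was -0.05 at the high dose and -0.02 at the low dose.

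Nr1d1 and Thra correlated across the 18 samples at r = 0.75 (Spearman's rho 0.73). Within a dose the correlation was r = 0.895 over the 9 high-dose samples and r = 0.38 over the 9 low-dose samples. Over the 9 means of both doses it was 0.76, and over the 9 dose differences, in which the shared air pool cancels, it was 0.50. Leaving out the high-dose samples at 7 weeks 6 hours and 13 weeks 2 hours, which lie farthest from the median of Nr1d1, gave r = 0.59. The value thus rests in part on those samples, and points share an array and, in pairs, an air pool. The difference Nr1d1 minus Thra averaged 0.03 (SD 0.19, n = 18). It was above 0 in all 3 low-dose samples at 20 hours (0.165 to 0.415) and below 0 in all 3 low-dose samples at 2 hours (-0.37 to -0.015).

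**Figure D3:**
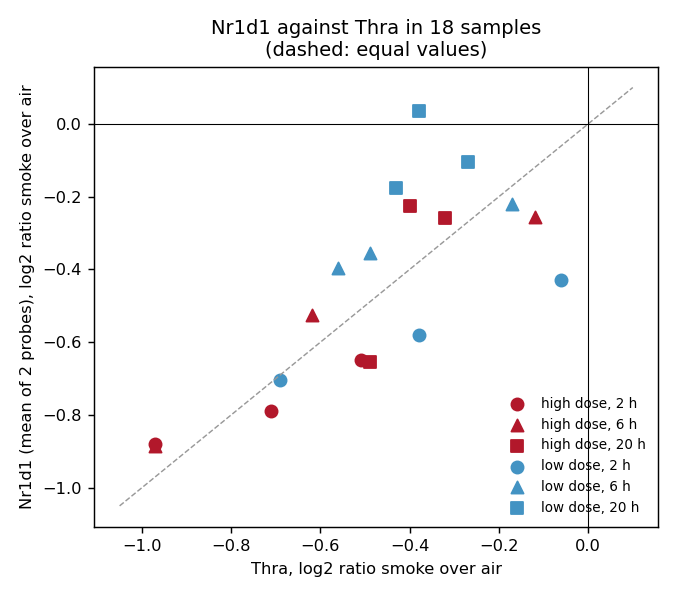
Log2 ratio of Nr1d1 (mean of its 2 probes, vertical axis) against that of Thra (horizontal axis) in the 18 samples, red for the high dose and blue for the low dose, with the marker showing the hours after the last exposure and the dashed line equal values. The high-dose points follow the line closely (r = 0.895), the low-dose points less so (r = 0.38).

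Among the 3966 genes compared over at least 15 samples, Thra ranked 11th by its correlation with Nr1d1, and Nr1d1 ranked 9th for Thra. For the single probes of Nr1d1, Thra ranked 4th for probe A and 36th for probe B. The pair was chosen for this correlation, so the ranks are a description. Nr1d2 ranked 293rd for Nr1d1 and 565th for Thra. The median gene correlated at r = -0.02 with Nr1d1 and -0.03 with Thra. The genes most like Nr1d1 were Tsc2 (r = 0.85), which encodes the mTOR pathway inhibitor tuberin, Prkcb (0.82), a protein kinase C gene, the autophagy gene Uvrag (0.82), the membrane-cytoskeleton linker gene Ezr (0.81), Gmfg (0.77) and the T cell receptor complex gene Cd3d (0.77). Of these, Prkcb (-0.37 ± 0.05, limma, adjusted p = 0.000342), Ezr (-0.31 ± 0.07, adjusted p = 0.00594) and Cd3d (-0.41 ± 0.10, adjusted p = 0.00934) were called lower than air at the high dose. Over all genes, 7.64% were called lower there. Genes like Nr1d1 were picked on the same ratios that made Nr1d1 low, so these calls are no independent support. Prkcb is a mean over several probes, whose pairs correlated at r between -0.30 and 0.67. The genes most like Thra were the splicing factor gene Hnrnph1 (r = 0.81), the tRNA synthetase gene Eprs1 (0.78), the nuclear export gene Cse1l (0.78), the chromatin reader gene Brd1 (0.77), the phosphatase subunit gene Ppp2r2a (0.77) and the matrix proteoglycan gene Agrn (0.77). None of these genes most like Thra passed the test against air, with high-dose means between -0.21 and -0.02.

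Marker lists of several cell types were set beside the pair. Over all genes, 7.64% were called lower and 9.56% higher at the high dose, and 1.44% and 3.51% at the low dose. Of the lymphocyte markers, all 5 measured of 8 listed were called lower at the high dose: Cd3g (-0.54), Cd4 (-0.38), Cd79b (-0.61), Prf1 (-0.57) and Gzma (-0.52). At the low dose 1 of them was called lower, Cd4 (-0.28). The mean of the list lay between -0.974 and -0.288 in the high-dose samples and between -0.636 and 0.102 in the low-dose samples. It correlated with Nr1d1 at r = 0.63 and with Thra at r = 0.39. Endothelial markers were called lower in 3 of 4 at the high dose, and none was called at the low dose. Their list mean lay between -0.47 and 0.025 at the high dose and between -0.43 and 0.11 at the low dose. It correlated at -0.13 with Nr1d1 and 0.06 with Thra. Macrophage markers at the high dose were called higher in 3 of 4 and lower in 1 of 4, Adgre1 (-0.72). At the low dose 2 were called higher and 1 lower. The macrophage list mean correlated at -0.43 with Nr1d1 and -0.49 with Thra. The blood markers Hbb and Pf4 were not called at either dose, and their mean correlated at -0.50 with Nr1d1 and -0.64 with Thra. Of the alveolar markers, the surfactant protein genes Sftpa1 (0.54) and Sftpd (0.50) were higher and Aqp5 (-0.29) lower at the high dose, and the mean of the 4 measured correlated at -0.35 with Nr1d1 and -0.41 with Thra. Sftpa1 alone correlated at -0.67 with Nr1d1 and -0.53 with Thra, and Sftpd at -0.43 and -0.62 with the same genes. Of the neutrophil markers at the high dose, S100a9 (1.43) and Cxcr2 (0.55) were called higher and Retnlg (-0.43) lower. S100a8 (0.32) was not called. The neutrophil list mean, over members that moved in opposite directions, correlated at -0.10 with Nr1d1 and -0.38 with Thra. No muscle marker was called at either dose, and the muscle list mean correlated at 0.05 and -0.10. The airway marker Foxj1 was called higher at the high dose (0.52) and correlated at 0.06 and 0.03. In whole lung, fewer cells of a type and less RNA per cell cannot be told apart, and the part of cell composition in the values of the pair was not tested.

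The measured genes around the pair on the chromosome had means close to the air level. Up to 5 measured genes on each side were taken: Erbb2, Grb7, Ikzf3, Psmd3 and Med24 before Thra, and Casc3, Cdc6, Rara, Top2a and Igfbp4 after Nr1d1. Between 0 (Med24) and 10 (Erbb2) coding genes lay between such a gene and the pair. Casc3 is a mean over several probes, whose pairs correlated at r between -0.26 and 0.55. Their high-dose means lay between -0.12 (Igfbp4) and 0.13 (Grb7), and their low-dose means between -0.12 (Igfbp4) and 0.13 (Cdc6). None of these 10 passed the test at either dose, against 7.64% of all genes called lower and 9.56% called higher at the high dose. Med24, which encodes a Mediator subunit and overlaps Thra on the other strand in the annotation, was at 0.02 ± 0.06 at the high dose and correlated with Thra at r = -0.05. Correlations with Nr1d1 ran between -0.60 (Psmd3, a proteasome subunit gene) and 0.52 (Ikzf3, a lymphocyte transcription factor gene).

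**Figure D4:**
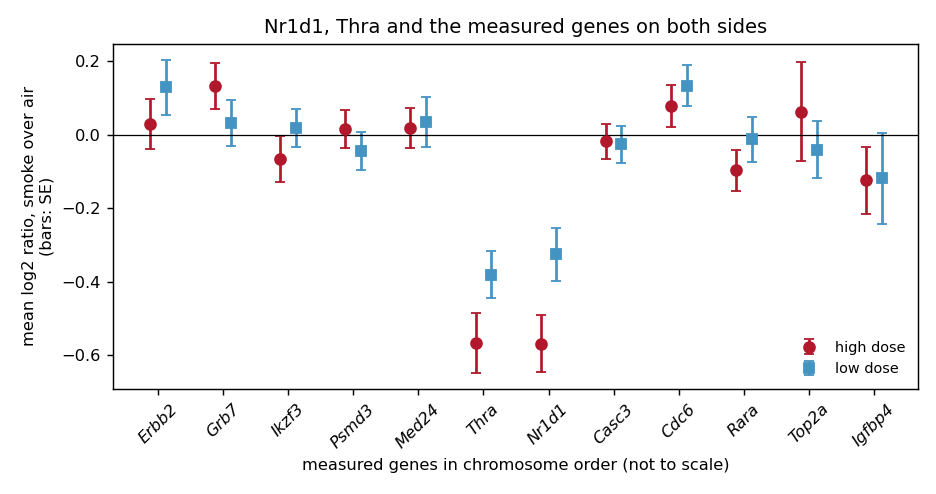
Mean log2 ratio of smoke over air with its SE (vertical axis, n = 9 per dose, fewer for Top2a) for the measured genes in chromosome order (horizontal axis, not to scale), high dose in red circles and low dose in blue squares. Thra and Nr1d1 lie between -0.57 and -0.33, and the 10 measured genes around them between -0.12 and 0.13.

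Other gene pairs of the table that overlap each other on a chromosome gave a frame for the correlation. The 73 other overlapping pairs had a median r of 0.08 (quartiles -0.19 and 0.32), and the highest was 0.73, for Ugt1a7c and Ugt1a6, which belong to 1 gene cluster with shared exons. None reached the r = 0.75 of Nr1d1, as the mean of its probes, and Thra. Against Thra, probe A alone gave r = 0.74 and probe B alone 0.64, so the place of the pair depends on the probe. The 32 other pairs known to lie on opposite strands had a median of -0.05 and a highest value of 0.51. Pairs of unknown strand were left out of these, among them Gnat2 and Gnai3 at r = 0.55. Of the 850 other adjacent pairs, with a median of 0.03, 6 were at or above the value of the pair. For scale, 2 different probes of the same gene correlated at a median of 0.27 over 170 such probe pairs, and 16 of them were at or above the 0.69 of the Nr1d1 probes. Genes with several probes, such as Cd44, give many of these pairs, so the pairs are not independent. Since the pair was chosen for moving together, its place in these distributions is a description.

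**Figure D5:**
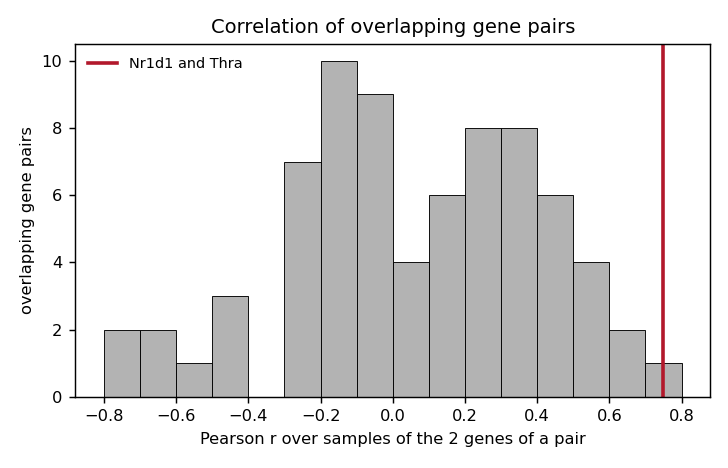
Histogram of Pearson's r across samples for gene pairs that overlap on a chromosome (horizontal axis r, vertical axis number of pairs); grey bars are the 73 other pairs and the red line is Nr1d1 with Thra. The grey bars have a median of 0.08 and a highest value of 0.73, and the line stands at 0.75.

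The promoters of the pair and of Nr1d2 are shown because Nr1d1 and Nr1d2 took different values along the hours while the overlapping neighbours were low in the same samples. The windows run 250 bases before to 50 bases after a transcript start and come from RefSeq (rat assembly GRCr8). They are printed 5′ to 3′ in the direction of transcription, with matched motifs in capitals. Nr1d1 has 2 start sites in the table, at chr10:84231763-84232062 and chr10:84229405-84229704 on the minus strand. The first of the 2 Thra windows lies at chr10:84197891-84198190 on the plus strand and the Nr1d2 window at chr15:9954784-9955083 on the plus strand.
Nr1d1, first start: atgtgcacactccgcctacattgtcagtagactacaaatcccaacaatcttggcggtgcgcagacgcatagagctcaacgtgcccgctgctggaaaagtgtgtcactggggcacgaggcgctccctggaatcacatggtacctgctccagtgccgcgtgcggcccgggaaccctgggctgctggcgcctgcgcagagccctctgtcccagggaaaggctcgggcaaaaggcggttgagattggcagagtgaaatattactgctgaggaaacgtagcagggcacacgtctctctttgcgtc
Nr1d1, second start: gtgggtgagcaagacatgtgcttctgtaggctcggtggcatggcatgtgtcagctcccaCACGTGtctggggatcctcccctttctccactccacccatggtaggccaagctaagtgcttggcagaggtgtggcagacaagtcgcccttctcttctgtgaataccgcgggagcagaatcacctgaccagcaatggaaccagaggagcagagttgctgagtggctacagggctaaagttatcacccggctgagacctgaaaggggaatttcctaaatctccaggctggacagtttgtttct
Thra, first start: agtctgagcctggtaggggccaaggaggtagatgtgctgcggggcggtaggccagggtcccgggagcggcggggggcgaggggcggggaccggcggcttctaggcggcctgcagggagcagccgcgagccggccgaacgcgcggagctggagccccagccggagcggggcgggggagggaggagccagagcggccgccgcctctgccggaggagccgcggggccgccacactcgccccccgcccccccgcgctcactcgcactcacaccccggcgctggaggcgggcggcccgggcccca
Nr1d2: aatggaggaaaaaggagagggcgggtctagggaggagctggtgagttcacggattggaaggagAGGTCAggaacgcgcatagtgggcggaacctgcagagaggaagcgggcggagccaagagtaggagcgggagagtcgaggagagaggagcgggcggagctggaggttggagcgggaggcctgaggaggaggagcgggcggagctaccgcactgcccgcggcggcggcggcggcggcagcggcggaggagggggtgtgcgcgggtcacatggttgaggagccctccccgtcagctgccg
Both strands were searched for CACGTG, the E-box bound by CLOCK and BMAL1, for AGGTCA, the half-site of many nuclear receptors, and for TTATGTAA, the D-box bound by Dbp and Tef. The second Nr1d1 window held CACGTG at base -191, counted from the start, and the Nr1d2 window held AGGTCA at -187. Neither Thra window nor the first Nr1d1 window held any of the 3. Of 33469 promoter windows of this length, 6.42% held CACGTG, 16.18% held AGGTCA and 0.89% held TTATGTAA. The first Thra window is rich in G and C (79.7%, against 59.0% in the first Nr1d1 window and 68.7% in that of Nr1d2). A match is a description of the letters, and regulation through these motifs was not tested.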

How the data were processed

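The authors' deposited table holds log2 ratios of smoke-exposed (Cy5) over air-exposed (Cy3) lung RNA for 18 samples, per the labels. Equal amounts of RNA from 4 rats were pooled, amplified linearly and hybridised on 2 PIQOR arrays per sample, per the labels' protocols. The sources used here name no scanner, background correction or normalization, and no intensities were used, so signal over background is unknown. The log2 unit was checked on the deposited values: each of the 257 values below -1 is the log2 of a 2-decimal ratio. Columns have medians between -0.01 and 0.01. That the ratio is smoke over air rests on the channel labels.

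The table lists each of 5997 probes on 2 rows. These were merged, since 90791 of 90792 values present in both rows were equal, and genes were averaged over probes. Symbols are those of the platform annotation, and for 9614 of 9658 named rows the gene identifier was found in the RefSeq rat table (GRCr8), used for names, neighbours and overlaps.

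A gene was tested where at least 6 of 9 combinations held a value for each dose (4016 genes, 3994 over hours and weeks) with limma 3.58.1 in R 4.3.3, two-sided, with Benjamini-Hochberg adjustment over all genes and a threshold of 0.05. The mean of the 9 ratios of a dose was tested against 0. Dose was tested on the 9 differences, and hours and weeks by F tests on 9 combination means with the other factor as covariate. The code was tested on simulated data. With 1 sample per combination, samples of other weeks or hours stand in for replicates, and precision is limited by how few arrays there are. Probe pairs of a gene whose values differed by under 0.02 on average were taken as repeats and left out (55 pairs). Named genes were Nr1d1, Thra, Nr1d2 and Thrb, the 6 genes most correlated with each member, up to 5 measured neighbours a side, every measured clock gene, and up to 4 called genes per list (otherwise 2 as values). Cell type markers are named outside this rule, after their values were seen. Alternatives were probe handling, centring, missing values, left-out weeks, hours or doses, covariates, and an exact sign-flip test. Members, lists and tests were chosen with earlier results of these data known.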

Additional observations from a re-analysis of the deposited data

Results flagged for a closer look

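Smoke-over-air values differed between the hours after exposure, by limma's F test over 2, 6 and 20 hours with adjustment over 3994 genes, for 6 genes named here. They were Nr1d2 (adjusted p = 1.02e-05), Bmal1 (adjusted p = 1.02e-05), Dbp (adjusted p = 1.05e-05), Tef (adjusted p = 0.00186), Bhlhe40 (adjusted p = 0.00917) and Klf9 (adjusted p = 0.0353). These patterns were known from earlier results of the same data, that of Nr1d2 also when it was set beside Nr1d1, so their p-values are no independent support. Nr1d1 and Thra did not pass that test (adjusted p = 0.132 and 0.742). Hours after exposure and time of day cannot be told apart in any of these results. Each combination has 1 sample, so no sample was tested for standing apart within a group.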

How the results depend on the processing

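The means of Nr1d1 and Thra against air and their dose differences kept their sign in all 9 alternatives run for each. Nr1d1 was below air in 17 of 18 samples and Thra in 18 of 18, and Nr1d1 was lower at the high dose in 9 of 9 pairs. Leaving out weeks or hours could therefore not change these signs, so their keeping is no support. Nr1d1 ranged between -0.66 and -0.47 at the high dose and between -0.45 and -0.20 at the low dose, and Thra between -0.69 and -0.49 and between -0.42 and -0.32. The dose difference ranged between -0.33 and -0.10 for Nr1d1 and between -0.285 and -0.07 for Thra, smallest in size for both without the 7-week samples. Over hours the adjusted p stayed between 0.102 and 0.445 for Nr1d1 and between 0.579 and 0.993 for Thra. The Nr1d2 difference between 20 and 2 hours ranged between 1.23 and 1.45 over 9 alternatives, but its mean against air turned to -0.56 at the high dose and -0.21 at the low dose without the 20-hour samples. The correlation of the pair was 0.75 over all samples, 0.895 at the high dose, 0.38 at the low dose, 0.50 over dose differences, 0.59 without the 2 farthest samples and 0.85 without the 20-hour samples.

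Counts over all genes moved more. At the high dose 691 genes were called, against 198 and 267 without 7 or 13 weeks, 278 and 398 without 2 or 20 hours, and 322 by an exact sign-flip test. At the low dose 199 were called, against 128, 50 and 31 without 2, 7 or 13 weeks, 48, 104 and 122 without 2, 6 or 20 hours, 123 without the 13-week 2-hour combination and 0 by the sign-flip test. Between doses 7 were called, against 24 over genes complete in all samples, 20 without the 13-week 2-hour combination, 0 without 7 weeks, 4 without 13 weeks, 0 and 1 without 6 or 20 hours, and 0 by the sign-flip test. Over hours 64 were called, against 109 with every probe on its own, 36, 18 and 31 without 2, 7 or 13 weeks, 32 at the high dose alone and 18 at the low dose alone. Over weeks 5 were called, against 2 without 2 hours, 2 without 20 hours, 2 at the high dose alone, 1 at the low dose alone and 2 without the other time factor. Most of these settings use fewer samples. The exact sign-flip test has few possible sign patterns with so few ratios per dose, so its p-values cannot fall below a coarse floor. With adjustment over all genes, no gene can pass unless many genes reach that floor together. Its counts, 0 at the low dose and 0 between doses among them, thus cannot show whether limma's calls hold. Beyond these limits the cause was not tested. Thra minus Thrb had values in 3 samples and was not recomputed. The doses were compared within shared air pools throughout, and no block on replicate numbers was fitted because each combination has 1 sample.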
